A study of Homo sapiens with 24 samples.

Results

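The 10 genes described are members of the transforming growth factor beta (TGF-beta) system, measured in 2 metastatic clear cell renal cell carcinoma (ccRCC) lines with and without depletion of the renal lineage transcription factor PAX8. They were taken by symbol from the 26475 genes of the expression tables: the ligand genes TGFB1, TGFB2 and TGFB3, the receptor genes TGFBR1, TGFBR2 and TGFBR3, the intracellular mediators SMAD3 and SMAD7, the secreted matrix protein gene TGFBI and the focal adhesion adaptor gene TGFB1I1. TGFB1I1 was chosen by its expected counts, which had nearly vanished in the OS-LM1 libraries with a PAX8 hairpin and in no others, so its levels against the control libraries are a description and carry no test. The lines were 786-M1A and OS-LM1, metastatic derivatives of the established ccRCC lines 786-O and OS-RC2, grown in RPMI with serum. Each was profiled by poly(A) RNA-seq with the control construct sgNTC18, with shPAX8-1 or with shPAX8-2, at 4 libraries per group and 24 in all. An "sg" label is the usual one for a CRISPR guide, whereas both PAX8 constructs are short hairpin RNAs, so the kind of construct and PAX8 depletion cannot be told apart in any comparison with sgNTC18. The study's methods describe the hairpins as doxycycline-inducible, and whether the sgNTC18 cells received doxycycline is not given in the sources used here. Nothing in the labels says that the libraries of a group came from separate cultures, so the p-values measure the spread between these libraries, which may be technical.

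TGF-beta ligands are secreted as latent dimers, are released in the matrix, and assemble the kinases encoded by TGFBR2 and TGFBR1 on the cell surface. The receptor complex phosphorylates SMAD2 and SMAD3, which enter the nucleus with SMAD4, and SMAD7 is a feedback inhibitor that they induce. In epithelial cells the pathway is known for growth arrest, for matrix production and for epithelial to mesenchymal transition, and in kidney for fibrosis.

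Levels are CPM, the deposited expected counts scaled to library size with TMM factors, and levels of different genes are compared only as TPM, which also divides by transcript length. Totals per library were between 11634419 and 52059375 expected counts. The median was 32029482.5 in the 8 sgNTC18 libraries and 18200166 in the 16 hairpin libraries, so by the median low counts were measured less deeply with a hairpin. Changes are log2 fold changes ± standard error from the quasi-likelihood test of edgeR over 12 libraries of a line, and every adjusted p is a Benjamini-Hochberg value over all genes tested, 14452 in 786-M1A and 15049 in OS-LM1. A gene is said to rise or fall where this adjusted p was under 0.05. In 786-M1A with shPAX8-1 the libraries formed pairs: the chi-square per gene between replicates was 14.1 for replicates 1 and 2, 3.73 for replicates 3 and 4, and 44.8 to 77.5 across the pairs. The OS-LM1 shPAX8-2 libraries also differed from each other, from 16.0 for replicates 1 and 2 to 89.6 for replicates 3 and 4. From that group only single libraries were left out. Log2 fold changes also moved with the GC content of the transcripts, with a rank correlation over genes of -0.25 for PAX8 depletion in 786-M1A and -0.31 in OS-LM1, and values with this trend removed are given beside the results of the members whose call or direction they change. The epithelial keratin KRT8 was present in every group, but at 250.2 TPM in 786-M1A with sgNTC18 against 41.7 and 61.8 TPM with shPAX8-1 and shPAX8-2. The renal cadherin CDH6 was at 51.3 against 6.47 and 6.07 TPM in 786-M1A and at 64.3 against 9.43 and 9.04 TPM in OS-LM1. EPCAM stayed at or under 4.21 TPM in both lines, and the ccRCC markers CA9 and NDUFA4L2 at or under 0.045 and 0.465 TPM in 786-M1A. In OS-LM1 CA9 was at 7.31 against 49.0 and 33.0 TPM, and NDUFA4L2 at 0.848 against 35.9 and 38.8 TPM.

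The guide strands of both hairpins are shown because every comparison rests on them, with bases 2 to 8, the seed, in capitals.
shPAX8-1: tGTGAGTCaatgcttagtcggc
shPAX8-2: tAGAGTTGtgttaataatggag
Both are 22 bases long and complementary to PAX8 transcripts. Of 14 annotated PAX8 transcripts, shPAX8-1 matched 10 and shPAX8-2 matched 7 over the full length. The shPAX8-1 site is coding sequence in exon 7 of 12 (chr2:113241690-113241711, hg38), and the shPAX8-2 site lies in exon 12 of 12 after the coding sequence (chr2:113218122-113218143). No transcript of another gene matched either guide over its full length. A match to the shPAX8-1 seed was in none of the 10 genes, against 14.8% of 19676 genes searched by their longest coding transcript. The shPAX8-2 seed matched TGFB2 and TGFBR3 at 1 position each and none of the other 8, against 20.1% of all genes. A seed match is only a run of letters, and no effect on the transcript follows from it.

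PAX8, the targeted gene, was lower with each hairpin in each line, in all 16 libraries. In 786-M1A its level was 292, 393, 359.8 and 319 CPM with sgNTC18, 22.9, 21.9, 15.2 and 14.8 CPM with shPAX8-1, and 41.4, 45.5, 42.6 and 40.0 CPM with shPAX8-2. In OS-LM1 it was 262, 279, 245 and 254 CPM with sgNTC18, 85.6, 78.4, 59.8 and 89.2 CPM with shPAX8-1, and 76.2, 63.8, 97.0 and 79.9 CPM with shPAX8-2. The depletion was thus deeper in 786-M1A, by a difference in log2 fold change of 1.87 (adjusted p = 7.53e-10, edgeR on 24 libraries). Between hairpins PAX8 was lower with shPAX8-1 in 786-M1A (-1.18, adjusted p = 4.01e-05), while in OS-LM1 the difference was -0.05 (adjusted p = 0.797). PAX8-AS1 overlaps PAX8, and the counting is not stated to use strand, so their reads may not be separate.

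**Figure D1:**
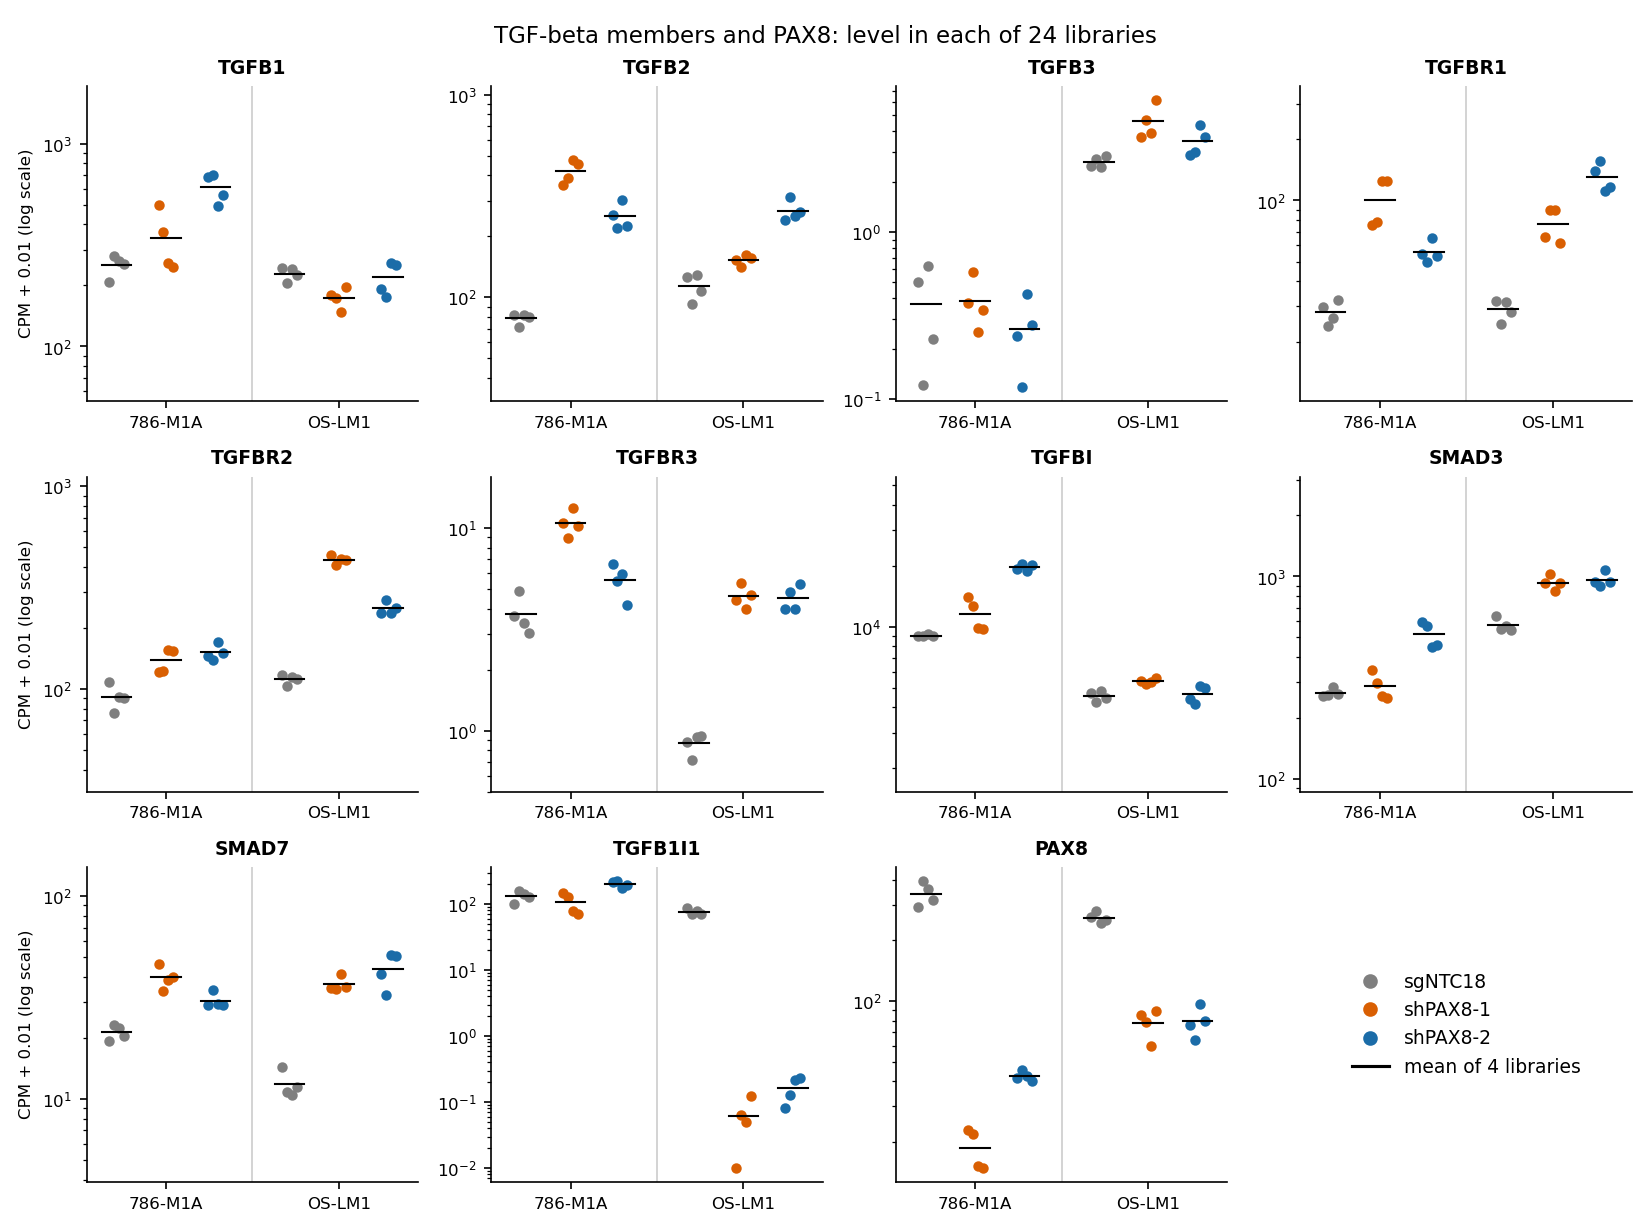
Level of each TGF-beta gene and of PAX8 in the 24 libraries, as CPM + 0.01 on a log axis, by line and construct, with 1 point per library and a bar at the mean of 4 libraries. TGFB1I1 lies between 69.8 and 87.6 CPM in OS-LM1 with sgNTC18 and at or under 0.224 CPM with a hairpin, and the 2 pairs of 786-M1A shPAX8-1 libraries show in TGFB1, TGFBR1, TGFBI and TGFB1I1.

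The TGF-beta genes mostly stood higher after PAX8 depletion, and TGFB1I1 was the exception in OS-LM1. Of 8 members tested in 786-M1A, 7 rose with each hairpin, against 25.1% of all genes tested, and SMAD3 passed with shPAX8-2 but not with shPAX8-1. With a GC trend removed SMAD3 passed with shPAX8-1 too, and the count was 8 of 8, against 30.1% of all genes. Of 9 members tested in OS-LM1, 7 rose with each hairpin, against 29.2% of all genes, and the exceptions were TGFB1 and TGFBI. With a GC trend removed TGFB2 no longer passed with shPAX8-1 there, and the count was 6 of 9, against 28.4% of all genes. These counts leave out TGFB1I1, and in 786-M1A they also leave out TGFB3, which was too low to test. None of these tested members fell with both hairpins in either line, where 25% of all genes in 786-M1A and 29.2% in OS-LM1 did. Taken singly, 7 of 8 members tested in 786-M1A changed with shPAX8-1 (background 70.6%), 8 of 8 with shPAX8-2 (62.5%) and 8 of 8 over both (70.4%). In OS-LM1, 9 of 9 changed with shPAX8-1 (background 71.4%), 7 of 9 with shPAX8-2 (68.4%) and 8 of 9 over both (73.4%), shares that lie close to the background. At a change of more than 0.58 on the log2 scale with each hairpin, the counts were 4 of 8 in 786-M1A, against 18.6% of all genes, and 5 of 9 in OS-LM1, against 19.5%. With replicates 1 and 2 of 786-M1A shPAX8-1 left out, 5 of 8 rose with each hairpin in that line, against 24.7% of all genes.

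**Figure D2:**
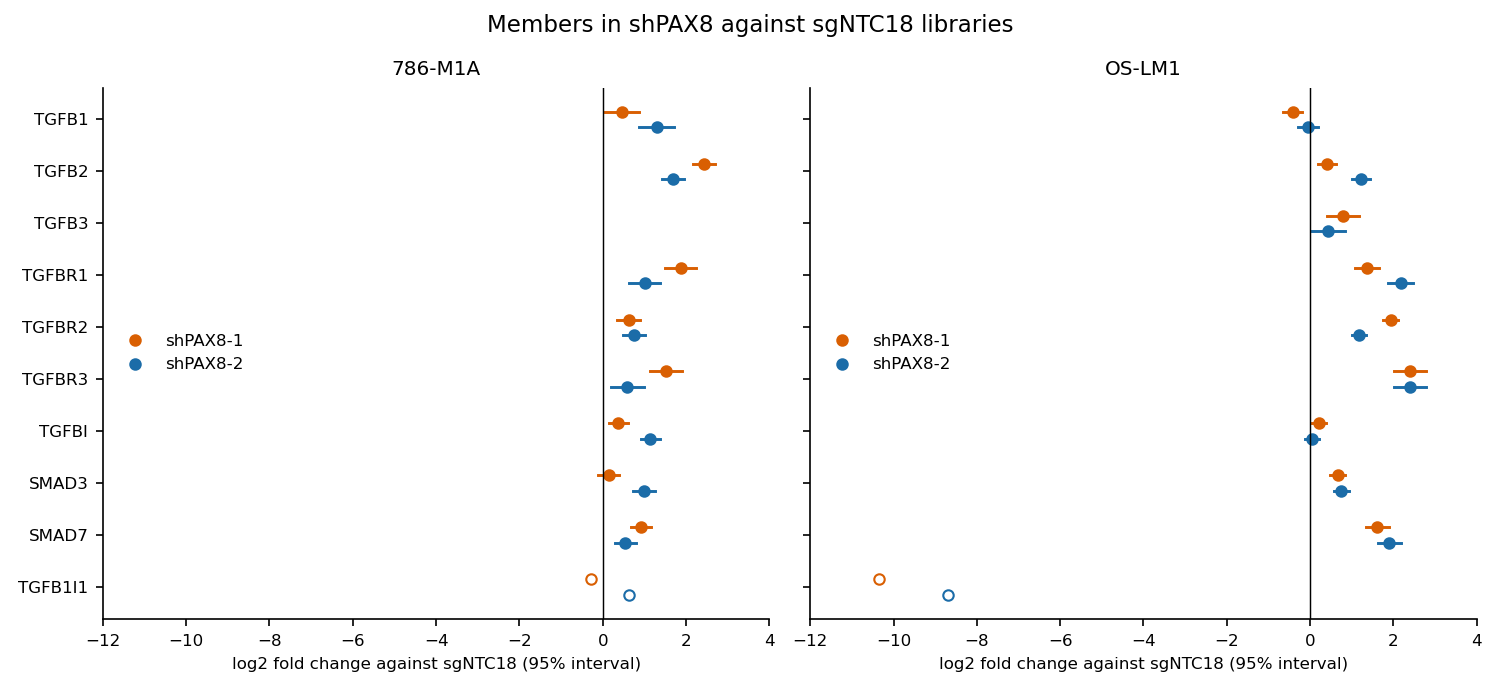
Log2 fold change of each gene with shPAX8-1 (orange) and shPAX8-2 (blue) against sgNTC18 in each line, as the fitted value with its unadjusted 95% interval. Open circles mark TGFB1I1, which is shown without interval or test, and TGFB3 was not tested in 786-M1A. In OS-LM1 the TGFB1I1 values of -10.36 and -8.70 lie far below those of the other genes.

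TGFB1I1 encodes a LIM domain protein of focal adhesions, also called Hic-5, whose gene is induced by TGF-beta1 and which binds paxillin partners, SMAD proteins and steroid receptors. The gene lies at chr16:31472152-31477960 on hg38, and no other annotated gene overlaps it. In OS-LM1 with sgNTC18 it had 3110, 2384, 2862 and 2324 expected counts, or 87.6, 69.8, 79.6 and 70.0 CPM. With shPAX8-1 the 4 libraries held 0, 1, 1 and 3 counts, and with shPAX8-2 they held 1, 2, 10 and 7. All 8 hairpin libraries were therefore at or under 10 counts, and no value came near the control libraries.

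The TGFB1I1 counts in OS-LM1 were also summed over libraries and divided by the summed library totals, without TMM factors. The level obtained in this way was 75.9 CPM with sgNTC18. It was 0.0548 with shPAX8-1 (exact Poisson interval 0.0178 to 0.128, from 5 counts) and 0.169 with shPAX8-2 (0.103 to 0.262, from 20 counts). On this scale the sgNTC18 level was 1385 times that with shPAX8-1 and 448 times that with shPAX8-2. These ratios only describe the values by which the gene was chosen. The Poisson intervals cover counting error and not the spread between libraries. The gene passed the count filter in OS-LM1 through its sgNTC18 libraries alone. In bulk RNA, fewer cells with the transcript and less transcript per cell cannot be told apart.

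In 786-M1A, TGFB1I1 stayed expressed. Its level was 101, 155, 141 and 128 CPM with sgNTC18, 147, 127, 78.4 and 71.3 CPM with shPAX8-1, and 219, 221, 173 and 195 CPM with shPAX8-2. The shPAX8-1 libraries overlapped the controls, with replicates 3 and 4 below all of them, and the shPAX8-2 libraries lay above all of them. The fitted changes against sgNTC18 were -0.29 with shPAX8-1 and 0.64 with shPAX8-2, and the first turned to 0.31 after a GC trend was removed. On a length-corrected scale the gene was at 138 ± 20.6 TPM (SD, n = 4) in the 786-M1A controls and at 76.1 ± 8.38 TPM in the OS-LM1 controls, a level between those of TGFB1 and TGFBR2.

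The choice of TGFB1I1 also drew on its presence in the other libraries, since its counts had nearly vanished in the OS-LM1 hairpin libraries only. It did not rest on the size of the difference between hairpins in 786-M1A or between lines in control libraries. Both differences come from the same libraries as the choice, so their p-values are no independent support for it. In 786-M1A TGFB1I1 was lower with shPAX8-1 than with shPAX8-2 by 0.93 ± 0.204 on the log2 scale (fitted change -0.93, adjusted p = 0.0022), and the 4 libraries of each did not overlap. The OS-LM1 hairpin groups, at 5 and 20 counts in sum, are the values whose near absence chose the gene, and their difference carries no test. In sgNTC18 libraries the gene was lower in OS-LM1 than in 786-M1A by a change of -0.77 ± 0.172 (adjusted p = 0.000325), and every OS-LM1 library lay below every 786-M1A library.

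Few other transcripts vanished in OS-LM1 in this way. Of 26475 genes, 9 averaged over 10 CPM in OS-LM1 sgNTC18 libraries and under 0.5 CPM with each hairpin. These were UGT1A10, TGFB1I1, VAV3, DSP, CASP14, FOXP2, C15orf48, GSTA1 and RNF182, listed by falling control level. UGT1A10, a glucuronosyltransferase gene that shares exons with its family so that its reads are uncertain, averaged 89.8 CPM against 0.476 and 0.346 CPM, and DSP, which encodes desmoplakin, averaged 15.8 CPM against 0.0613 and 0.0324 CPM. The filter did not use 786-M1A, where DSP, CASP14 and GSTA1 were at or under 0.234 CPM in all groups. VAV3 went there from 2.14 CPM to 0.0256 and 0.0277 CPM with the hairpins. C15orf48 stayed at 28.3 to 43.6 CPM in 786-M1A, UGT1A10 at 7.17 to 10.2, FOXP2 at 5.97 to 7.82 and RNF182 at 0.841 to 0.932 CPM. Besides TGFB1I1, 14 genes were under 0.2 CPM in OS-LM1 with each hairpin and over 20 CPM in all 786-M1A groups. In OS-LM1 sgNTC18 libraries these 14 genes stood at or under 1.48% of the 786-M1A sgNTC18 level, against 58.5% for TGFB1I1. The identity of the libraries was not tested.

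Genes around TGFB1I1 on chromosome 16 kept their reads in OS-LM1. ARMC5, 4985 bases upstream, averaged 5.69, 4.86 and 5.92 CPM with sgNTC18, shPAX8-1 and shPAX8-2. C16orf58, 11515 bases downstream, averaged 41.6, 28.2 and 37.1 CPM in the same order. SLC5A2, which encodes the renal glucose transporter SGLT2 and lies 5163 bases downstream, was at or under 0.145 CPM in all OS-LM1 groups. The near absence of reads was thus seen at TGFB1I1 and not at its expressed neighbours.

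The 250 bases before the first annotated TGFB1I1 start are shown as the first of 3 annotated starts, and which start the cells use was not measured. The window is chr16:31471902-31472151 on the plus strand (RefSeq, GRCh38.p14), and CpG dinucleotides are in capitals.
TGFB1I1 promoter: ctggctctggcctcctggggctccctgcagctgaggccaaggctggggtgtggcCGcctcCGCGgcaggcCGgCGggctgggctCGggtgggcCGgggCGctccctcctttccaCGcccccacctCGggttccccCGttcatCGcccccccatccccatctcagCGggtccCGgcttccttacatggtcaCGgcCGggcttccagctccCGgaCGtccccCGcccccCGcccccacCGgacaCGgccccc
It holds 22 CpG and is 76.4% G or C. The median over 35116 promoter windows of this length was 11 CpG, and 28.0% of them held 22 or more. Windows before the other annotated TGFB1I1 starts held 29 and 5 CpG. No methylation was measured in these libraries.

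**Figure D3:**
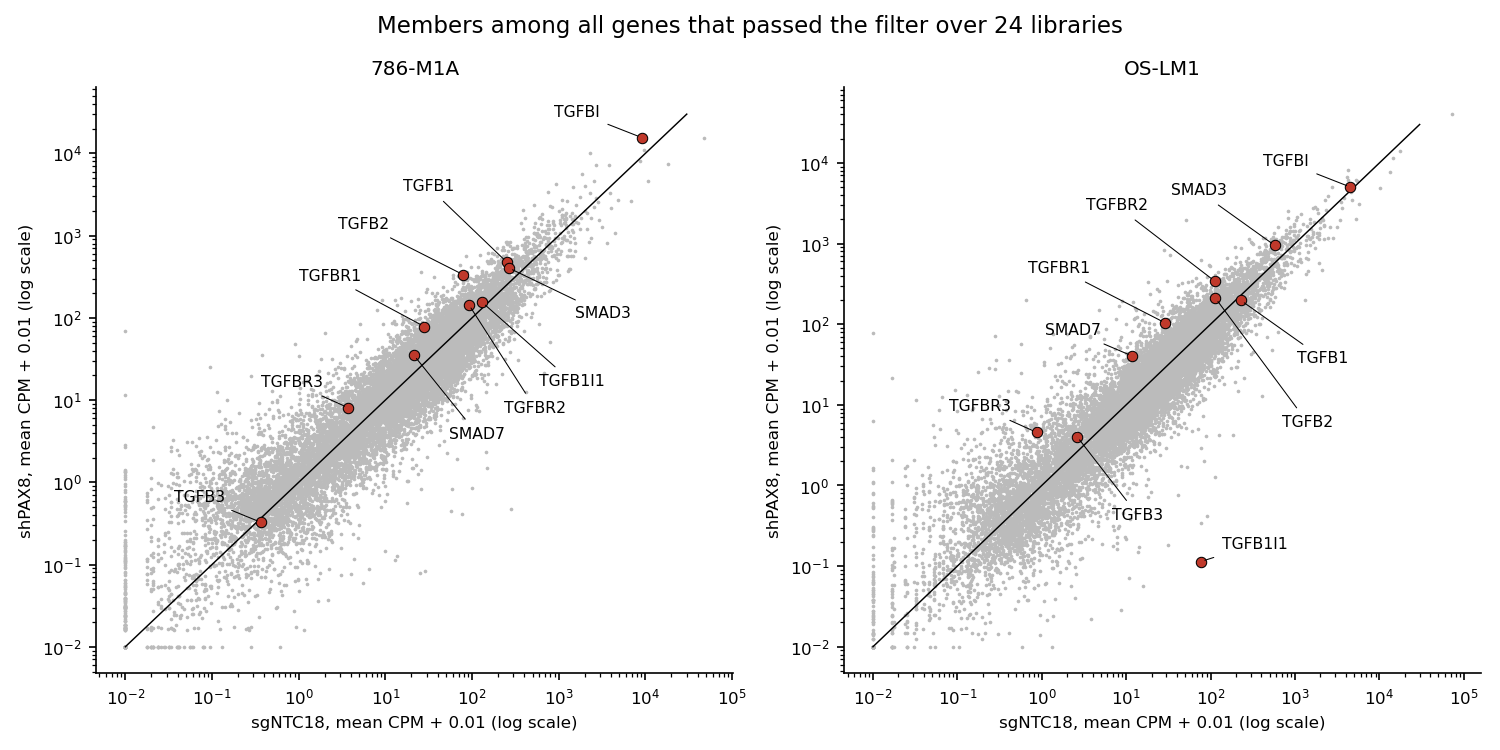
Mean CPM + 0.01 with a PAX8 hairpin against that with sgNTC18, on log axes, with 1 grey point per gene that passed the filter over 24 libraries and the TGF-beta genes in red. On the line the levels are equal. TGFB1I1 at 76.8 CPM with sgNTC18 in OS-LM1 lies far below the line, while in 786-M1A at 131 CPM it lies near it.

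Genes whose levels resembled those of TGFB1I1 over the 24 libraries were found among 13389 genes by Pearson correlation of log2 CPM, as a description over libraries that share 6 groups. The closest were PSRC1 (r = 0.993), KIF20A (0.990), TRAP1 (0.985), KIF2C (0.983) and KIFC1 (0.982). All were lower in the OS-LM1 hairpin libraries, but none was near 0. PSRC1, a spindle protein gene, averaged 42.9 CPM with sgNTC18 and 8.63 and 9.85 CPM with the hairpins in OS-LM1, and 49.7 to 51.4 CPM in the 3 groups of 786-M1A. KIF20A, KIF2C and KIFC1 encode mitotic kinesins, and KIF20A averaged 108 CPM in OS-LM1 with sgNTC18 against 23.1 and 28.8 CPM with the hairpins.

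Among the ligands, TGFB1 rose in 786-M1A and not in OS-LM1. It encodes the most widely expressed TGF-beta isoform and was at 181 ± 17.1 TPM in 786-M1A and 156 ± 11.2 TPM in OS-LM1 with sgNTC18. In 786-M1A the levels were 208, 279, 264 and 255 CPM with sgNTC18, 499, 367, 257 and 246 CPM with shPAX8-1, and 684, 700.2, 496 and 558 CPM with shPAX8-2. The shPAX8-2 libraries all lay above the controls, whereas with shPAX8-1 only replicates 1 and 2 did. The change was 1.30 ± 0.197 with shPAX8-2 (adjusted p = 4.25e-05) and 0.47 ± 0.195 with shPAX8-1 (adjusted p = 0.0440). Without shPAX8-1 replicates 1 and 2 the latter was 0.01 (adjusted p = 0.938), and it was no longer called in 9 of 12 fits that each left out 1 library (each sgNTC18 replicate, shPAX8-1 replicates 1 and 2, shPAX8-2 replicates 1, 2 and 4, changes from 0.22 to 0.51).

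In OS-LM1, TGFB1 was at 244, 207, 240.0 and 225 CPM with sgNTC18, 179.6, 173, 148 and 196 CPM with shPAX8-1, and 192, 176, 259 and 253 CPM with shPAX8-2. All shPAX8-1 libraries lay below the controls, and the shPAX8-2 libraries overlapped them. The change was -0.42 ± 0.112 with shPAX8-1 (adjusted p = 0.00254) and -0.05 ± 0.112 with shPAX8-2 (adjusted p = 0.704). After a GC trend was removed both values turned positive, to 0.16 (adjusted p = 0.0651) and 0.34 (adjusted p = 0.000705), so the direction of TGFB1 in OS-LM1 depends on that choice. The difference between the lines did not: it was -1.08 ± 0.210 (adjusted p = 8.27e-05), and -1.12 with the trend removed.

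TGFB2, the isoform linked to development and to mesenchymal conversion, rose with each hairpin in both lines. In 786-M1A it went from 82.2, 71.4, 81.7 and 79.8 CPM to 359, 387, 475 and 456 CPM with shPAX8-1 and 256, 221, 302 and 226 CPM with shPAX8-2. In OS-LM1 it went from 126, 93.3, 129.8 and 108 CPM to 153, 142, 163 and 156 CPM with shPAX8-1 and 240.1, 312, 252 and 265 CPM with shPAX8-2. In both lines all hairpin libraries lay above all controls. The changes were 2.43 ± 0.124 and 1.69 ± 0.122 in 786-M1A and 0.40 ± 0.102 and 1.23 ± 0.103 in OS-LM1, for shPAX8-1 and shPAX8-2 in turn (adjusted p = 4.74e-10, 2.52e-08, 0.00164 and 3.04e-09). The rise was smaller in OS-LM1, by -1.22 ± 0.143 (adjusted p = 5.46e-08), and the value with shPAX8-1 there was 0.12 (adjusted p = 0.219) after a GC trend was removed. TGFB2-AS1 and TGFB2-OT1 overlap the gene, and the counting is not stated to use strand, so their reads may not be separate.

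TGFB3 was the least abundant ligand, at 0.195 TPM in 786-M1A and 1.32 TPM in OS-LM1 with sgNTC18. In 786-M1A it had 2 to 19 counts per library and did not pass the filter. In OS-LM1 it was at 2.45, 2.72, 2.42 and 2.83 CPM with sgNTC18, 3.69, 4.66, 3.89 and 6.11 CPM with shPAX8-1, and 2.87, 2.98, 4.34 and 3.68 CPM with shPAX8-2. No hairpin library lay below a control. The change was 0.79 ± 0.187 with shPAX8-1 (adjusted p = 0.000854) and 0.44 ± 0.188 with shPAX8-2 (adjusted p = 0.0451). The second call was lost in 8 of 12 fits that each left out 1 library (each sgNTC18 replicate, replicates 2 and 3 of shPAX8-1, replicates 3 and 4 of shPAX8-2, changes from 0.31 to 0.47). It was also lost with DESeq2 (adjusted p = 0.0590), with the replicate block (0.0612), at a minimum of 1 count (0.0736) and in the fit of 24 libraries (0.133).

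All 3 receptor genes rose with each hairpin in each line. TGFBR1 encodes the type I receptor kinase that phosphorylates SMAD2 and SMAD3, and it stood at 8.03 TPM in 786-M1A and 7.78 TPM in OS-LM1 with sgNTC18. In 786-M1A it went from 29.9, 24, 26.2 and 32.2 CPM to 76.1, 78.7, 124 and 125 CPM with shPAX8-1 and 54.6, 49.5, 65.3 and 53.3 CPM with shPAX8-2. In OS-LM1 it went from 31.9, 24.5, 31.7 and 28.1 CPM to 65.9, 89.5, 89.3 and 61.5 CPM with shPAX8-1 and 139.8, 156, 111 and 116 CPM with shPAX8-2. Hairpin and control libraries did not overlap in either line. Over both hairpins the change was 1.44 ± 0.157 in 786-M1A (adjusted p = 9.84e-07) and 1.78 ± 0.128 in OS-LM1 (adjusted p = 2.62e-10), and the difference between the lines was 0.37 with an interval of -0.05 to 0.78 (adjusted p = 0.121).

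TGFBR2, the ligand-binding type II kinase, stood at 36.7 TPM and 42.2 TPM in the controls of 786-M1A and OS-LM1. In 786-M1A it went from 109, 75.9, 91.9 and 89.8 CPM to 122, 123, 156 and 155 CPM with shPAX8-1 and 146, 139, 170.2 and 150.5 CPM with shPAX8-2. In OS-LM1 it went from 118, 103, 115 and 112 CPM to 458, 408, 439 and 433 CPM with shPAX8-1 and 238, 276, 237 and 251 CPM with shPAX8-2. Again no library overlapped the controls of its line. The change over both hairpins was 0.68 ± 0.111 in 786-M1A (adjusted p = 5.31e-05) and 1.55 ± 0.0734 in OS-LM1 (adjusted p = 4.53e-13). It was larger in OS-LM1 by 0.90 ± 0.126 (adjusted p = 9.95e-07).

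TGFBR3, or betaglycan, a co-receptor that presents ligand and is often low in ccRCC, was rare, at 1.06 TPM in 786-M1A and 0.230 TPM in OS-LM1 with sgNTC18. In 786-M1A it went from 3.66, 4.86, 3.40 and 3.03 CPM to 10.6, 8.95, 12.5 and 10.2 CPM with shPAX8-1 and 6.60, 5.45, 5.88 and 4.13 CPM with shPAX8-2. In OS-LM1 it went from 0.873, 0.703, 0.918 and 0.934 CPM to 4.42, 5.34, 3.97 and 4.67 CPM with shPAX8-1 and 3.99, 4.84, 3.96 and 5.25 CPM with shPAX8-2. The shPAX8-2 libraries overlapped the controls in 786-M1A only. The change over both hairpins was 1.06 ± 0.164 in 786-M1A (adjusted p = 3.41e-05) and 2.39 ± 0.169 in OS-LM1 (adjusted p = 1.7e-10), and it was larger in OS-LM1 by 1.36 ± 0.222 (adjusted p = 8.88e-06). The OS-LM1 control libraries held 24 to 33 counts each.

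SMAD3, the transcription factor through which the receptors act, rose clearly in OS-LM1 and with shPAX8-2 in 786-M1A. In 786-M1A it was at 256, 259, 284 and 262 CPM with sgNTC18, 344, 299.5, 258 and 250.2 CPM with shPAX8-1, and 597, 571, 451 and 462 CPM with shPAX8-2. The shPAX8-1 libraries overlapped the controls and the shPAX8-2 libraries lay above them. The change was 0.14 with an interval of -0.12 to 0.40 for shPAX8-1 (adjusted p = 0.309; 0.34 and adjusted p = 0.00191 with a GC trend removed) and 0.99 ± 0.121 for shPAX8-2 (adjusted p = 5.11e-06). In OS-LM1 it went from 638, 551, 572 and 545 CPM to 923, 1025, 851 and 929 CPM with shPAX8-1 and 944, 900.1, 1077 and 943 CPM with shPAX8-2, with no overlap. The change over both hairpins there was 0.71 ± 0.0761 (adjusted p = 7.3e-08). SMAD3-AS1 overlaps SMAD3, with the same limit on strand.

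SMAD7, which blocks the type I receptor, rose with each hairpin in both lines. In 786-M1A it went from 19.2, 23.1, 22.4 and 20.5 CPM to 46.2, 34.2, 38.5 and 39.9 CPM with shPAX8-1 and 29.2, 34.3, 29.3 and 29.2 CPM with shPAX8-2. In OS-LM1 it went from 14.4, 10.8, 10.5 and 11.4 CPM to 35.0, 34.7, 41.4 and 35.7 CPM with shPAX8-1 and 41.5, 32.4, 51.4 and 50.5 CPM with shPAX8-2. No hairpin library overlapped a control of its line. The change over both hairpins was 0.73 ± 0.104 in 786-M1A (adjusted p = 1.52e-05) and 1.76 ± 0.123 in OS-LM1 (adjusted p = 1.47e-10), a difference of 1.06 ± 0.163 (adjusted p = 3.73e-06).

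TGFBI, a secreted integrin-binding matrix protein first found as a TGF-beta induced gene, was by far the most abundant member, at 5994 ± 203 TPM in 786-M1A and 2848 ± 140 TPM in OS-LM1 with sgNTC18. In 786-M1A it was at 9003, 8946, 9194 and 8977 CPM with sgNTC18, 14075, 12593, 9808 and 9696 CPM with shPAX8-1, and 19201, 20365, 18749 and 20247 CPM with shPAX8-2. All hairpin libraries lay above the controls, and shPAX8-2 above shPAX8-1. The change was 0.38 ± 0.108 with shPAX8-1 (adjusted p = 0.00598) and 1.14 ± 0.109 with shPAX8-2 (adjusted p = 4.47e-07). The first was 0.13 (adjusted p = 0.167) without shPAX8-1 replicates 1 and 2.

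In OS-LM1, TGFBI was at 4686, 4241, 4789 and 4466 CPM with sgNTC18, 5384, 5240.4, 5353 and 5556 CPM with shPAX8-1, and 4415, 4139.7, 5076 and 5002 CPM with shPAX8-2. The shPAX8-1 libraries lay just above the controls and the shPAX8-2 libraries overlapped them. The change was 0.22 ± 0.0826 with shPAX8-1 (adjusted p = 0.0235) and 0.04 ± 0.0826 with shPAX8-2 (adjusted p = 0.686). The first was lost without shPAX8-1 replicate 3 (0.21) and without shPAX8-1 replicate 4 (0.21). Over both hairpins the change was 0.13 (adjusted p = 0.112), and 0.22 (adjusted p = 0.00504) with a GC trend removed. The rise was smaller in OS-LM1 by -0.60 ± 0.120 (adjusted p = 0.000129).

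The hairpins differed from each other in most of these genes in 786-M1A and in fewer of them in OS-LM1. TGFB2 and TGFBR1 differed in opposite directions in the lines, and TGFB1 in the same direction in both. In 786-M1A, 8 of 9 members tested differed, against 47.1% of all genes. TGFB2, TGFBR1, TGFBR3 and SMAD7 were higher with shPAX8-1, by 0.74, 0.86, 0.93 and 0.38 on the log2 scale (adjusted p = 0.000255, 0.00111, 0.000961 and 0.0157). TGFB1, TGFBI and SMAD3 were lower with it, with changes of -0.83, -0.77 and -0.85 (adjusted p = 0.00339, 0.000103 and 0.000103), as was TGFB1I1. TGFBR2 differed by -0.12 with an interval of -0.39 to 0.14 (adjusted p = 0.425), and by -0.39 (adjusted p = 0.000175) with a GC trend removed. The SMAD7 call was lost without shPAX8-2 replicate 1 (0.35). The GC content of genes ran with this comparison at a rank correlation of -0.56, the largest of all comparisons made, and with a GC trend removed TGFB1 differed by -0.30 and TGFBR1 by 0.42.

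In OS-LM1, 4 of 9 members tested differed between the hairpins, against 29.1% of all genes. TGFB2 and TGFBR1 were lower with shPAX8-1, with changes of -0.83 and -0.80 (adjusted p = 6.03e-06 and 0.000184), the reverse of 786-M1A. TGFBR2 was higher with it, by 0.76 (adjusted p = 7.55e-07). TGFB1 was lower, by a change of -0.37 (adjusted p = 0.0185), a call lost without shPAX8-1 replicate 2 or 3 or shPAX8-2 replicate 3 or 4, with changes from -0.35 to -0.26, and with a GC trend removed (-0.17, adjusted p = 0.0963). TGFBI differed by 0.18 (adjusted p = 0.114), and by 0.25 (adjusted p = 0.0129) with a GC trend removed. TGFBR3 differed by -0.00 with an interval of -0.35 to 0.34, and SMAD3 by -0.08 with an interval of -0.26 to 0.10. Tested as a difference between the lines, the hairpin contrast differed for 7 of 8 members tested, against 27.2% of all genes: TGFB2 (-1.54, adjusted p = 1.93e-07), TGFBR1 (-1.63, adjusted p = 1.19e-05), TGFBR2 (0.92, adjusted p = 4.56e-05), TGFBR3 (-0.91, adjusted p = 0.0054), TGFBI (0.98, adjusted p = 1.29e-05), SMAD3 (0.80, adjusted p = 0.00026) and SMAD7 (-0.64, adjusted p = 0.011).

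**Figure D4:**
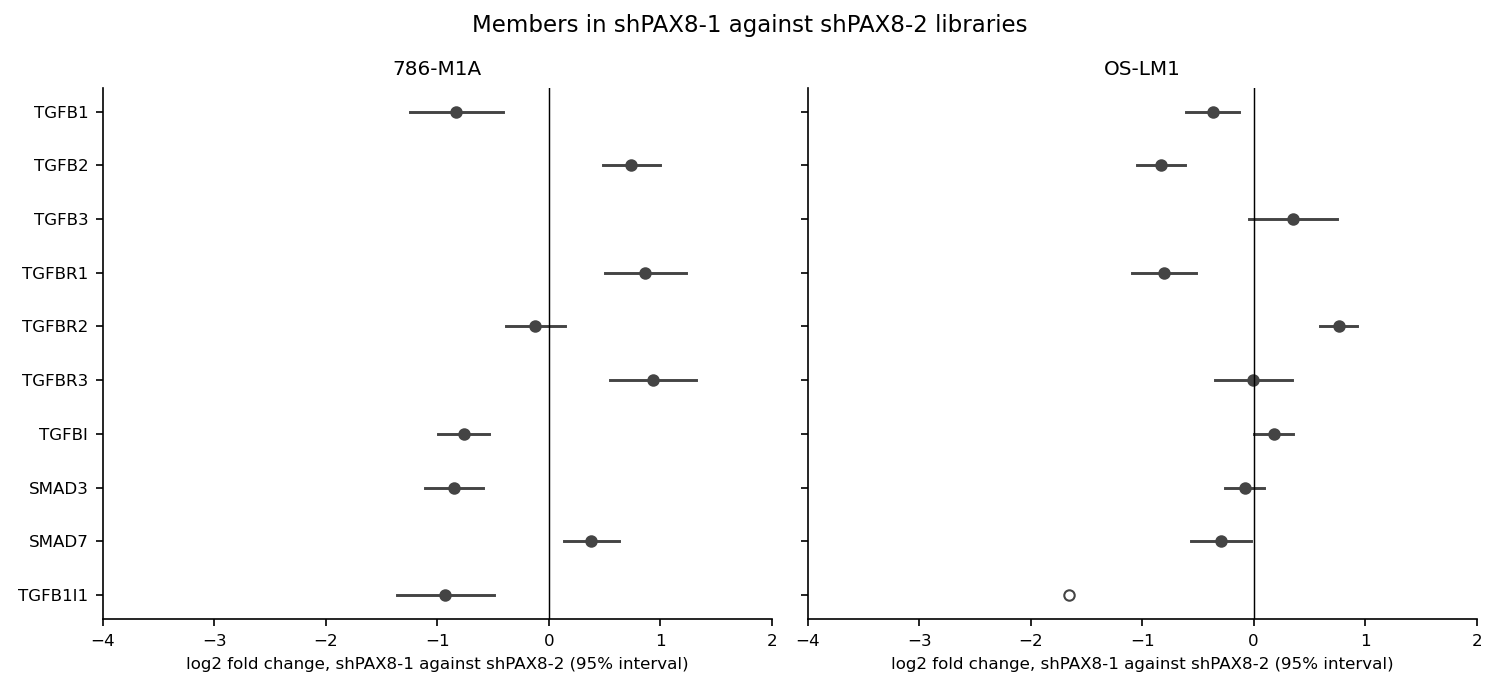
Log2 fold change of each gene with shPAX8-1 against shPAX8-2 in each line, with its unadjusted 95% interval. TGFB2 and TGFBR1 lie right of 0 in 786-M1A (0.74 and 0.86) and left of it in OS-LM1 (-0.83 and -0.80), TGFB3 was not tested in 786-M1A, and the open circle marks TGFB1I1 in OS-LM1, which rests on 5 and 20 counts and has no test.

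The lines already differed in the control libraries, where 7 of 9 members tested differed, TGFB1I1 among them, against 63% of all genes in a fit of the 24 libraries. With sgNTC18, OS-LM1 had more SMAD3 (1.12 ± 0.106, adjusted p = 6.42e-10) and TGFB2 (0.54 ± 0.116, adjusted p = 0.00025). TGFB3 was at 2.42 to 2.83 CPM in OS-LM1 and 0.111 to 0.615 CPM in 786-M1A, without a test since it passed the filter through OS-LM1 alone. OS-LM1 had less TGFBR3 (-2.11 ± 0.189, adjusted p = 2.45e-10), TGFBI (-0.99 ± 0.0987, adjusted p = 1.78e-09) and SMAD7 (-0.85 ± 0.134, adjusted p = 3.87e-06). TGFBR2 differed by 0.29 (adjusted p = 0.0164), and by 0.21 with the call lost without 786-M1A sgNTC18 replicate 2. It was 0.079 (adjusted p = 0.282) with a GC trend removed. TGFB1 and TGFBR1 did not pass the test, at -0.14 with an interval of -0.49 to 0.21 and 0.05 with an interval of -0.29 to 0.39, and with a GC trend removed TGFB1 was at 0.45 (adjusted p = 9.17e-06) and TGFBR1 at -0.18 (adjusted p = 0.121).

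With a hairpin, 8 of 8 members tested differed between the lines, against 83.1% of all genes. TGFB1 was lower in OS-LM1 (-1.22 ± 0.122, adjusted p = 6.43e-10) and TGFB2 had changed sides (-0.68 ± 0.0820, adjusted p = 2.11e-08). TGFBR2 was higher in OS-LM1 (1.19 ± 0.0733, adjusted p = 2.89e-14) and TGFBI lower (-1.59 ± 0.0708, adjusted p = 2.37e-17). The TGFBR1 call was lost with a GC trend removed (0.099, adjusted p = 0.195). SMAD7, higher in OS-LM1 by 0.21 (adjusted p = 0.0392), was no longer called in 8 of 24 fits that each left out 1 library (OS-LM1 shPAX8-1 replicate 3 and shPAX8-2 replicates 3 and 4, 786-M1A shPAX8-1 replicates 2 and 3 and shPAX8-2 replicates 1, 3 and 4, changes from 0.17 to 0.20). It was also lost with DESeq2 (adjusted p = 0.0558), DESeq2 size factors (0.0564), the replicate block (0.0556) and either pair of 786-M1A shPAX8-1 libraries left out (0.0531 and 0.105). The response to depletion itself differed between the lines for 6 of 8 members tested, against 58.7% of all genes, a share near the background. These were TGFB1, TGFB2, TGFBR2, TGFBR3, TGFBI and SMAD7, with the values given above, and TGFBR1 and SMAD3 did not pass (0.37 and 0.17, adjusted p = 0.121 and 0.252).

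By level, the groups ordered differently from gene to gene. For TGFB1 each group overlapped the next, from 609 CPM in 786-M1A shPAX8-2 to 174 CPM in OS-LM1 shPAX8-1. TGFBR2 was highest in OS-LM1 shPAX8-1 at 435 CPM and then in OS-LM1 shPAX8-2 at 251 CPM, each clear of the next, while both 786-M1A hairpin groups overlapped at 152 and 139 CPM. TGFB2 was highest in 786-M1A shPAX8-1 at 419 CPM, clear of OS-LM1 shPAX8-2 at 267 CPM and 786-M1A shPAX8-2 at 251 CPM, which overlapped. For TGFB1I1 the order ran from 202 CPM in 786-M1A shPAX8-2, which stood clear, through 131 and 106 CPM in the other 786-M1A groups and 76.8 CPM in OS-LM1 sgNTC18, to the OS-LM1 hairpin groups at 0.156 and 0.0517 CPM.

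Other genes of the pathway were read from lists that hold none of the 10 members, and a gene is counted where it moved the same way with each hairpin. Over all genes tested 25.1% rose and 25% fell in 786-M1A, with a median change of 0.04, and 29.2% rose and 29.2% fell in OS-LM1, with a median of -0.01. Among other ligands and activators of latent ligand, 4 of 17 tested rose and 4 fell in 786-M1A (median 0.16), and 7 of 15 rose and 4 fell in OS-LM1 (median 0.42). The 786-M1A count became 8 rising after a GC trend was removed. INHBA, the activin A subunit gene, rose in both lines, from 15.3 CPM to 227 and 124 CPM in 786-M1A (3.47, adjusted p = 1.02e-11) and from 18.0 CPM to 312 and 355 CPM in OS-LM1 (4.19, adjusted p = 1.11e-15). ITGB6, a subunit of a latent TGF-beta activating integrin, fell in both, by changes of -2.61 and -1.37. ITGB8, its counterpart in a second such integrin, fell in 786-M1A from 132 CPM to 16.1 and 21.4 CPM and rose in OS-LM1 from 224 CPM to 327 and 507 CPM (0.86, adjusted p = 1.23e-06). LTBP4, a latent TGF-beta binding protein, fell in OS-LM1 from 56.2 CPM to 5.31 and 10.3 CPM.

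Of the other receptors of the superfamily, 6 of 9 tested rose and 0 fell in 786-M1A (median 0.70), and 3 of 11 rose and 2 fell in OS-LM1 (median 0.16). ACVR1C, the ALK7 receptor gene, rose in 786-M1A from 0.443 CPM to 11.7 and 3.73 CPM, and ACVR2B, an activin type II receptor, rose there by 1.96 (adjusted p = 3.78e-08). In OS-LM1 the activin receptor ACVR2A rose by 1.89 (adjusted p = 5.35e-11) and the BMP receptor BMPR2 by 1.56 (adjusted p = 4.33e-11). BMPR1B and the co-receptor ENG, or endoglin, fell there, by changes of -2.84 and -0.93, while in 786-M1A ENG was at 15.4 CPM with sgNTC18 and 20.6 and 41.5 CPM with the hairpins, and passed with shPAX8-2 alone.

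SMAD proteins and their regulators rose more often than they fell, at 9 against 2 of 18 in 786-M1A (median 0.61) and 13 against 2 of 19 in OS-LM1 (median 0.68). SMURF2, a ubiquitin ligase for SMADs and receptors, rose by 1.42 in 786-M1A (adjusted p = 8.07e-08), and SKI, a SMAD corepressor, by 1.56 in OS-LM1 (adjusted p = 3.2e-13). SMAD6, the inhibitory SMAD of the BMP branch, fell in 786-M1A from 7.61 CPM to 3.11 and 3.06 CPM. PMEPA1, a TGF-beta induced inhibitor of the pathway, fell in 786-M1A from 266 CPM to 138 and 171 CPM and rose in OS-LM1 from 119 CPM to 222 and 391 CPM (1.29, adjusted p = 7.84e-11).

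Genes known to respond to TGF-beta did not move in a single direction, with 7 rising and 6 falling of 19 in 786-M1A (median 0.35) and 13 rising and 6 falling of 19 in OS-LM1 (median 0.87). CTGF, a matrix protein gene also driven by YAP, rose in 786-M1A from 37.3 CPM to 224 and 149 CPM and in OS-LM1 from 51.4 CPM to 971 and 2968 CPM. SNAI2, the transition factor Slug, rose in OS-LM1 by 3.27 (adjusted p = 6.54e-14). TGM2, a transglutaminase, fell in 786-M1A by a change of -1.46 (adjusted p = 5.9e-09). TAGLN, a smooth muscle actin-binding protein, fell in OS-LM1 from 12.7 CPM to 1.39 and 5.55 CPM. Genes of the BMP branch mostly fell or did not pass: 2 rose and 4 fell of 7 in 786-M1A (median -1.19), and 0 rose and 4 fell of 8 in OS-LM1 (median -0.70). ID3, a BMP-induced inhibitor of helix-loop-helix factors, fell from 116 CPM to 33.6 and 45.1 CPM in 786-M1A and from 179 CPM to 35.8 and 62.2 CPM in OS-LM1, and ID1 fell in OS-LM1 from 145 CPM to 13.8 and 22.9 CPM.

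Focal adhesion genes whose products work with that of TGFB1I1 were mixed, with 4 rising and 7 falling of 20 in 786-M1A (median -0.23) and 8 rising and 4 falling of 19 in OS-LM1 (median 0.06). PTPN12, a phosphatase of focal adhesion proteins, rose in both lines, by 2.20 and 2.08 (adjusted p = 1.58e-08 and 2.03e-12). LPXN, a paxillin family member like TGFB1I1, fell in OS-LM1 from 89.6 CPM to 40.8 and 18.8 CPM. CSRP2, a LIM protein, rose in 786-M1A by 1.03 and fell in OS-LM1 with a change of -1.29. CSRP1 and the adaptor BCAR1 fell in 786-M1A, by changes of -1.93 and -1.33.

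**Figure D5:**
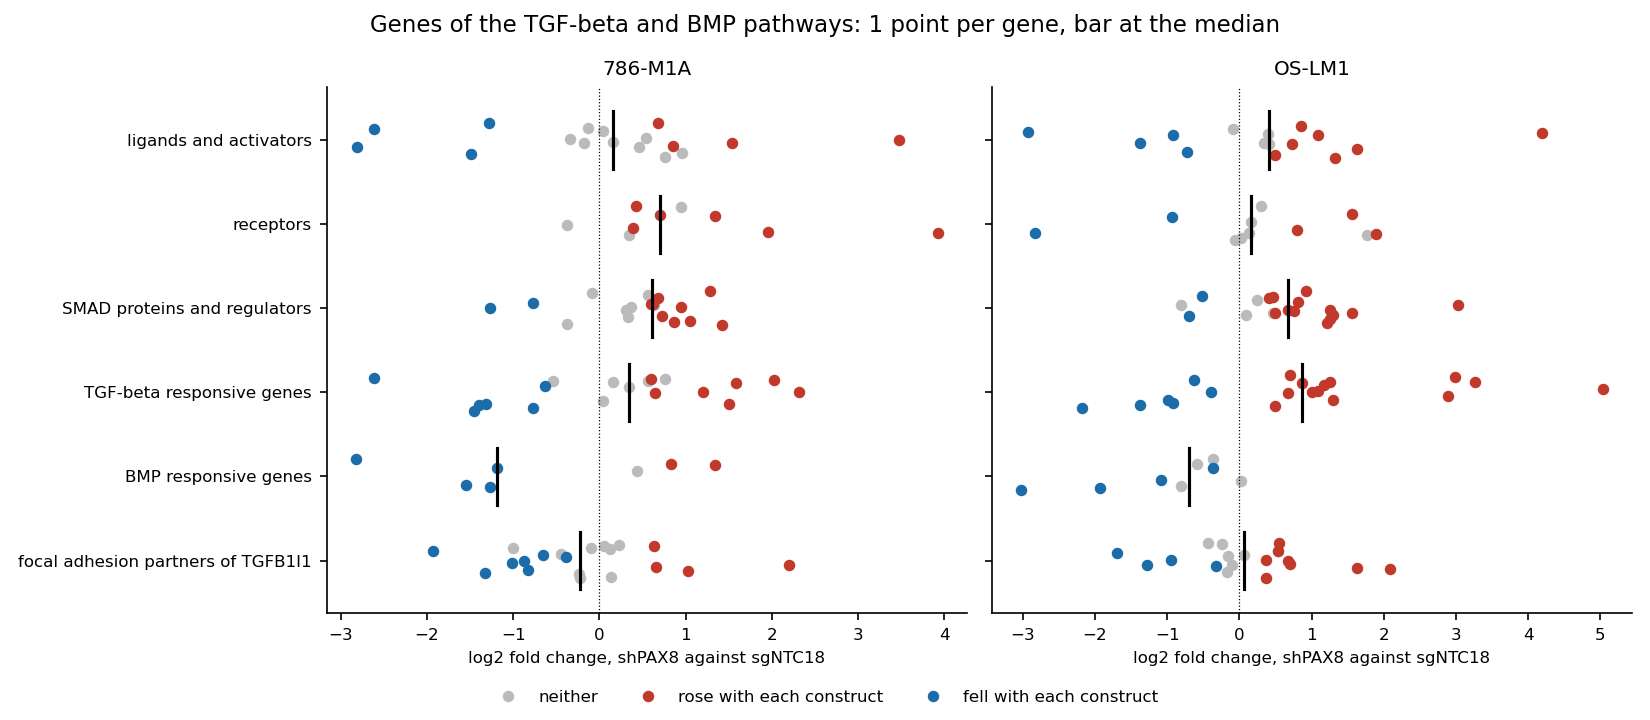
Log2 fold change over both hairpins against sgNTC18 for the pathway genes outside the 10 members, with 1 point per gene, colour for genes that rose or fell with each hairpin, and a bar at the list's median. SMAD proteins and regulators centre right of 0 in both lines (0.61 and 0.68), and BMP responsive genes left of it (-1.19 and -0.70).

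Markers of other cell types moved with the same groups in part. The summed level of 4 smooth muscle markers was 19.9 to 23.3 TPM in 786-M1A with sgNTC18, 47.8 to 61.3 TPM with shPAX8-1 and 87.4 to 98.6 TPM with shPAX8-2. In OS-LM1 it was 84.6 to 108 TPM, 194 to 237 TPM and 302 to 343 TPM in the same order, most of it ACTA2, with MYH11 at or under 0.41 TPM in the group means. The summed level of 6 fibroblast markers in OS-LM1 was 4.78 to 6.21 TPM with sgNTC18 and 29.8 to 59.6 TPM with a hairpin, nearly all COL1A1, while COL1A2 was under 0.1 TPM in every OS-LM1 library. In 786-M1A that sum was mainly PDGFRB and ranged from 62.4 to 275 TPM. Endothelial markers summed to at most 0.38 TPM, CD3E was at 0 in all groups, and the macrophage marker CD68 averaged 205, 230.2 and 325 TPM in 786-M1A and 77.2, 292 and 211 TPM in OS-LM1 with sgNTC18, shPAX8-1 and shPAX8-2. The part of any of these in the values above was not tested.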

How the data were processed

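RNA was measured in 24 libraries, and groups were taken from the labels. Per the submitters' processing notes and the study's methods, the authors mapped the reads to hg38 transcripts with RSEM and bowtie2 (versions not given in the sources used here) and deposited expected counts, TPM and FPKM per gene and library. The deposited FPKM were not used, and the deposited TPM served only for levels across genes and for markers. For library preparation the sources differ (a KAPA kit that marks strand in the labels, another kit in the methods), and nothing states that counting used strand.

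The deposited expected counts were rounded to whole numbers. Genes were kept by filterByExpr (minimum count 10), scaled by TMM and tested with the quasi-likelihood test of edgeR 4.0.16 in R 4.3.3, with 1 fit per line of 12 libraries, and 1 fit of all 24 for differences between lines, at an adjusted p under 0.05. The study's methods use DESeq2, run here (version 1.42.0) as an alternative. The other alternatives were DESeq2 size factors, a minimum of 1 count, stricter thresholds, TPM, a replicate block, removal of a GC trend (spline with 5 degrees of freedom on the GC of the transcripts, available for 90.4% of expressed genes) and leaving out each library. Leaving out pairs of 786-M1A shPAX8-1 libraries was added after seeing the data. The edgeR step was tested on simulated data. The members and the gene lists were chosen with earlier results of these data known. Named besides the members are PAX8, the 2 genes of each list and line that rose most and fell most, and the 5 genes most correlated with TGFB1I1, except that some of these are not reported here. Genes named for vanishing in OS-LM1, the neighbours of TGFB1I1 and the examples among them were chosen after their values were seen. Full matches and seed matches of the guides were searched in GENCODE transcripts, and promoters are from RefSeq.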

Additional observations from a re-analysis of the deposited data

Results flagged for a closer look

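In 2 of 60 groups checked, a library stood far from the other 3 of its group by Dixon's criterion, where chance gives about 1 in 20 groups: SMAD7 in 786-M1A shPAX8-2 replicate 2, at 34.3 CPM, and SMAD7 in OS-LM1 shPAX8-1 replicate 3, at 41.4 CPM. Both lay above the rest of their group and above the controls of their line.

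The response to PAX8 depletion differed between the lines by a test of the difference itself (log2 fold change in OS-LM1 minus that in 786-M1A) for TGFB1 (-1.08), TGFB2 (-1.22), TGFBR2 (0.90), TGFBR3 (1.36), TGFBI (-0.60) and SMAD7 (1.06). TGFB1, TGFB2 and TGFBI responded more in 786-M1A, and TGFBR2, TGFBR3 and SMAD7 more in OS-LM1.

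The difference between the hairpins also differed between the lines for TGFB2 (-1.54), TGFBR1 (-1.63), TGFBR2 (0.92), TGFBR3 (-0.91), TGFBI (0.98), SMAD3 (0.80) and SMAD7 (-0.64). For TGFB2 and TGFBR1 the sign was opposite in the 2 lines with an adjusted p under 0.05 in each.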

How the results depend on the processing

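Counts of genes called in each comparison with sgNTC18 and between lines stayed within 1.5 times under every alternative that was run. Between the hairpins, 6803 genes in 786-M1A became 4329 at an adjusted p under 0.01, 4335 with a change over 0.58 and 3869 without shPAX8-1 replicates 3 and 4. In OS-LM1, 4378 became 2703 and 1978 at the same thresholds. For the difference between the lines in this contrast, 4264 became 2449 at 0.01, 6817 without 786-M1A shPAX8-1 replicates 1 and 2, and 2579 without replicates 3 and 4.

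Directions that turned with a GC trend removed, alone and with the replicate block, were TGFB1 in OS-LM1 (0.25 and 0.25 over both hairpins, 0.16 and 0.16 with shPAX8-1, 0.34 and 0.33 with shPAX8-2), TGFB1 and TGFBR1 between the sgNTC18 libraries of the lines (0.45 and 0.45, -0.18 and -0.18), TGFB1I1 in 786-M1A with shPAX8-1 (0.31 and 0.31) and PAX8 between the hairpins in OS-LM1 (0.10 and 0.094). Without 786-M1A shPAX8-1 replicates 1 and 2 they were TGFB1I1 (-0.075 over both hairpins), SMAD3 with shPAX8-1 (-0.048), TGFBR2 between the hairpins (0.030) and the TGFB3 line difference between hairpins (0.14), and without replicates 3 and 4 TGFB1I1 with shPAX8-1 (0.057). TGFBR3 between the OS-LM1 hairpins, near 0, turned to 0.013 with DESeq2 size factors, 0.030 at a minimum of 1 count, 0.0098 with DESeq2, 0.025 over 24 libraries and 0.10 on TPM, as did SMAD3 (0.014) and PAX8 (0.031) on TPM. Leaving out 1 library turned some values near 0 as well. Their ranges were -0.14 to 0.039 for TGFB1 and -0.0011 to 0.089 for TGFBI with shPAX8-2 in OS-LM1, -0.14 to 0.087 for PAX8 and -0.062 to 0.10 for TGFBR3 between the OS-LM1 hairpins, -0.55 to 0.0043 for the TGFB3 line difference between hairpins, and -0.016 to 0.13 for TGFBR1 between control libraries. The cause was not tested.

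Equal replicate numbers did not pair libraries: of 24 same-numbered pairs, 8 had deviations correlated over 0.1 (median -0.07). With the replicate block 10298 genes were called for depletion in 786-M1A and 10718 in OS-LM1, against 10180 and 11052 without it. Over all results on single genes, 2920 alternative values kept direction and side of the threshold, 87 lost the call, 14 gained it, 36 turned direction and 9 moved.

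TGFB3 in 786-M1A and TGFB1I1 in OS-LM1 with a hairpin rest on few reads, at 19 and 10 counts or fewer per library. The library with 10 TGFB1I1 counts, OS-LM1 shPAX8-2 replicate 3, was the deepest of all, at 52059375 expected counts.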
